A study of Homo sapiens with 4 samples.

Results

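The insulin-like growth factor (IGF) axis was followed through 10 genes in SK-N-SH, an established human neuroblastoma cell line. The genes were given by name: the ligand gene *IGF2*, the receptor genes *IGF1R* and *IGF2R*, the adaptor gene *IRS1*, and *IGFBP2*, *IGFBP3*, *IGFBP4*, *IGFBP5*, *IGFBP6* and *IGFBP7*. All 10 were found among the 57820 genes of the count table, each under a single Ensembl gene identifier, with 59 listed transcripts, of which 24 had a count in any library. The OE cells were transduced with a recombinant lentivirus in which the EF1a promoter drives the cDNA of the long noncoding RNA *RP5-998N21.4* (*RP5-998N21.4* OE, 2 libraries), and the control cells with the lentivirus without an insert (vector control, 2 libraries). The genotype label and the titles call the control cells wild type, but their treatment label names the empty vector, so both groups carry a lentivirus. Cells were grown in the same medium, and nothing in the sources states whether the libraries came from separate cultures or transductions, so p-values measure only the spread between these libraries, which may be technical. Whether transduced cells were sorted or cloned was not given in the sources used here.

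IGF2 and IGF1 are secreted growth factors that activate IGF1R, a receptor tyrosine kinase, which then phosphorylates the docking protein IRS1 and switches on PI3K-AKT and MAPK signalling. IGF2R, also the cation-independent mannose 6-phosphate receptor, takes IGF2 to the lysosome and does not signal as a kinase. The IGF-binding proteins hold the ligands outside the cell with high affinity, and IGFBP7 is a more distant relative with weak affinity for IGF. In neuroblastoma, IGF signalling is known as a growth and survival pathway.

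To show the regulatory sequence of the genes the results turn on, 300-base promoter windows (250 bases before the transcription start and 50 after it) were taken from RefSeq, build GRCh38.p14. Of the 10 genes, 8 were matched to an entry in the set of windows used here, and *IGF2* and *IGFBP7* were not. The windows of *IGFBP3*, *IGFBP5* and *IGF2R* are shown because the lower OE library exceeded the higher vector control library for these genes. That of *IGFBP4* is shown because this gene was placed on different transcripts in different libraries. Capitals mark TATAAA (the TATA box core), GGGCGG (the GC box) and CACGTG (the E-box), searched on both strands, so TTTATA and CCGCCC count too. Matches may overlap, as some of GGGCGG do in *IGF2R*.
IGFBP3, chr7:45921223-45921522, minus strand: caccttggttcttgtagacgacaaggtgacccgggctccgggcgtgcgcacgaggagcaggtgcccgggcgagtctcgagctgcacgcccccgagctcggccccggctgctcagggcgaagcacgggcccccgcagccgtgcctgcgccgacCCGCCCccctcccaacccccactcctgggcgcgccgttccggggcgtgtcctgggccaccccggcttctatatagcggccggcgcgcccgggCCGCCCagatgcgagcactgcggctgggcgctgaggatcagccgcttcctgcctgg
IGFBP5, chr2:216695500-216695799, minus strand: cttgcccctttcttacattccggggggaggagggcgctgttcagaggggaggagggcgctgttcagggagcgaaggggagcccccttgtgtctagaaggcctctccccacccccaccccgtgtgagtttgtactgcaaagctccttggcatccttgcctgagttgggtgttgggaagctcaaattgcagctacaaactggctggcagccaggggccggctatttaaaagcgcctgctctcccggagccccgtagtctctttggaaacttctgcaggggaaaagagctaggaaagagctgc
IGF2R, chr6:159968832-159969131, plus strand: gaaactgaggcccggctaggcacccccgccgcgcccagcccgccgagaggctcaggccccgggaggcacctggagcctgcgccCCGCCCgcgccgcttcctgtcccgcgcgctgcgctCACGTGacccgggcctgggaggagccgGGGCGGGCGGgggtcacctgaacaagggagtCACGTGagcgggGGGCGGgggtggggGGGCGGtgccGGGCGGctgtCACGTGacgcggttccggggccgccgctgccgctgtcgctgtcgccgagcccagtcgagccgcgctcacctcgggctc
IGFBP4, chr17:40443200-40443499, plus strand: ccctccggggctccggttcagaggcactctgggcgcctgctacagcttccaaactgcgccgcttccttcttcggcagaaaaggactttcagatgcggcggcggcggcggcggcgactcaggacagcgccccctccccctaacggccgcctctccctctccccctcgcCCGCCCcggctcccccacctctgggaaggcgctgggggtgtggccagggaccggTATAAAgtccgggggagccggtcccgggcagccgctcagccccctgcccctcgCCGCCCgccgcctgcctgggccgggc

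The *IGF2R* window held 6 matches of GGGCGG and 3 of CACGTG. The *IGFBP3* window held 2 of GGGCGG, and the *IGFBP5* window held none of these letter strings. TATAAA was found in the window of *IGFBP4* alone among the 8 genes, beginning at position -29 from the transcription start. Over all 35116 windows of this length, TATAAA was in 11.5%, GGGCGG in 45% and CACGTG in 7.26%. These matches describe the letters only.

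The values below are counts summed over the transcripts of each gene. They are given as counts or as CPM, counts per 1000000 of the library size after TMM normalization. Library totals ran from 23785164 to 28307591 counts, and all 10 genes passed the filter on low counts as did 20528 of all 57820 genes. *RP5-998N21.4* was at 1.37 and 1.4 CPM in vector control and at 95.9 and 97.1 CPM in OE, as the labels state. Of genes that mark other tissues, *ALB*, *APOA1*, *HBB* and *KRT5* were listed at 0 counts in every library, and *PTPRC* and *ACTA1* had at most 4 counts. *GFAP*, an astrocyte marker, had 18 and 18 counts in vector control and 6 and 16 in OE (edgeR adjusted p = 0.415).

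Levels of different genes were compared per kilobase of transcript. On this scale (CPM per kb, lowest to highest over the 4 libraries), *IGFBP2* at 60.8 to 93.1 and *IGFBP4* at 38.6 to 102 stood at the top, and their ranges overlapped. *IGF2R* came next at 25.8 to 28.6, apart from its neighbours on both sides. *IGFBP3* at 10.8 to 15.5, *IGFBP6* at 5.93 to 24.2 and *IRS1* at 9.17 to 9.97 followed. *IGFBP6* overlapped both of the other two, while *IGFBP3* lay above *IRS1* in all libraries. *IGF1R* at 6.66 to 8.04, *IGFBP5* at 5.29 to 6.31 and *IGFBP7* at 1.28 to 7.95 had lower means, and *IGFBP7* overlapped both of the others. The wide range of *IGFBP6* overlapped these 3 genes too, and *IGFBP6* was below *IGF1R* in replicate 1 of each group. *IGF2* was last, with at most 0.266 CPM per kb. Summed over the 6 binding protein genes, the level was 156 and 241 CPM per kb for vector control against 183 and 147 for OE. *IGFBP2* and *IGFBP4* together made up 74.2% to 84.4% of this sum. The level per kb of *IGF2R* was 3.92 and 3.21 times that of *IGF1R* for vector control, against 4.3 and 3.71 times for OE.

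**Figure D1:**
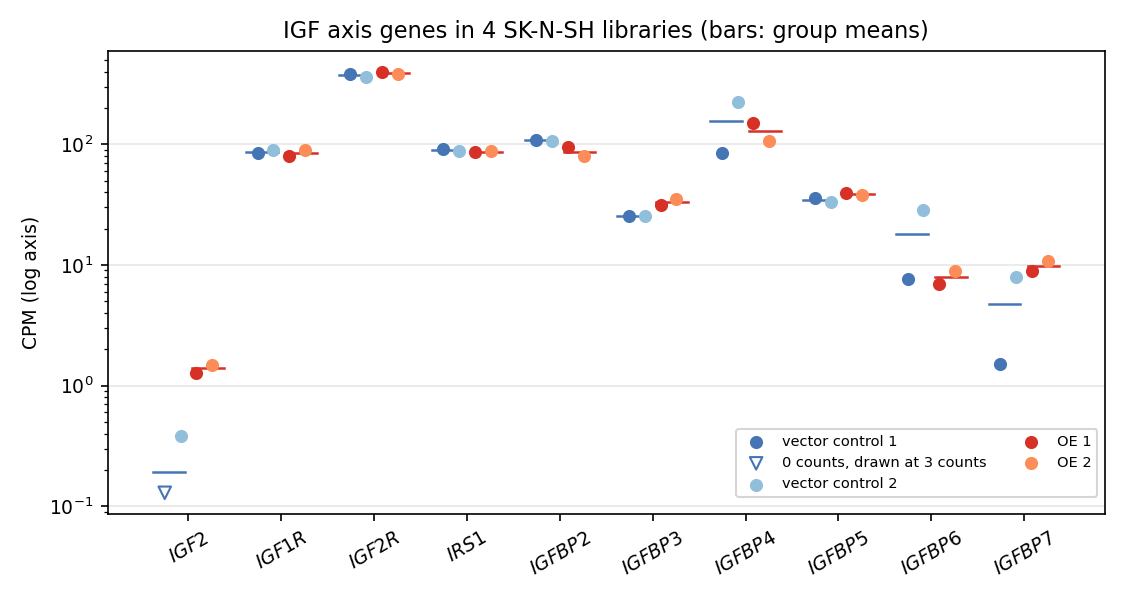
CPM (log axis) of the 10 IGF axis genes in the 2 vector control (blue shades) and 2 *RP5-998N21.4* OE (red and orange) libraries, with a bar at each group mean. An open triangle stands for 0 counts, drawn at the level of 3 counts. *IGFBP3* was at 25.2 and 25.6 CPM in vector control and at 31.5 and 35.3 CPM in OE, while *IGFBP4* ran from 85.2 to 224 CPM within the vector control.

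The OE libraries were compared with the vector control libraries to ask whether expression of the IGF axis differed after *RP5-998N21.4* overexpression. *IGFBP3* was 1.32-fold higher and *IGFBP2* 0.804-fold of the vector control level in the OE libraries, and the groups did not overlap for either gene. *IGF1R*, *IGF2R* and *IRS1* were at 0.979-fold, 1.05-fold and 0.972-fold of it. *IGF2* was near the detection limit in the vector control and low in the OE libraries. *IGFBP4*, *IGFBP6* and *IGFBP7* differed more between the vector control libraries than *IGFBP3* did between the groups.

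Tested with edgeR's quasi-likelihood test over all 20528 genes with Benjamini-Hochberg adjustment, 0 of the 10 genes reached the study's thresholds (adjusted p under 0.01 and absolute log2 fold change above 0.5). The same was true of all tested genes (0%). At an unadjusted p under 0.05, 1 gene (*IGFBP3*) was higher and 0 were lower in the OE libraries, where 10.1% of all tested genes were higher and 10.7% lower at that p. In 5 genes, neither OE library overlapped the vector control and both were above it (*IGF2*, *IGF2R*, *IGFBP3*, *IGFBP5* and *IGFBP7*), and in 1 gene both were below it (*IGFBP2*). Over all tested genes, 27.8% lay above and 27.6% below in this way. *IGF2*, with 0 and 9 counts in vector control, could pass the filter on low counts only through the OE libraries. The filter therefore favoured its place above the vector control. The median log2 fold change was 0.02 over the 10 genes and 0.01 over all tested genes. DESeq2, the tool of the study's own tests, called 0 of the 10 at the same thresholds, while it called 4.35% of all tested genes as higher and 4.42% as lower. The smallest two-sided p that exact permutation of 2 libraries against 2 allows is 0.333.

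*IGF2*, which encodes the ligand, lies on chromosome 11 (2150342 to 2179621, minus strand, in hg19, the build of all positions below). Its counts were 0 and 9 for vector control against 32 and 43 for OE, all on the transcript ENST00000416167.2. In CPM this was 0 and 0.383 in the vector control and 1.28 and 1.49 in the OE libraries, where 3 counts, taken here as the detection limit, correspond to 0.104 to 0.129 CPM. Both OE libraries were higher, and the vector control libraries differed between detected and not detected. The mean of the OE libraries was at least 10.7-fold that of vector control replicate 1 (taken at 3 counts) and 3.61-fold that of vector control replicate 2. The fitted log2 fold change over all 4 libraries was 2.82 (standard error, SE, 1.16, edgeR adjusted p = 0.288), a value that depends on edgeR's prior count because a library is at 0. It was 1.83 without vector control replicate 1. Annotated exons of *INS-IGF2*, *IGF2-AS* and ENSG00000240801 overlap those of *IGF2*, and each was listed at 0 counts in every library. *IGF1* and *INS*, the genes of the other ligands of this receptor family, were also listed at 0 in every library, where counting error allows up to the level of 3 counts.

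*IGF1R* (chromosome 15, 99191768 to 99507759, plus strand) encodes the signalling receptor. It was at 84.0 and 89.7 CPM in vector control and at 80.6 and 89.4 CPM in OE, so the groups overlapped. By edgeR the log2 difference came to -0.03 (SE 0.0996, adjusted p = 0.892), and the 95% interval ran from 0.804-fold to 1.19-fold. The direction of this small difference turned with several settings. At least 99.7% of its counts were on ENST00000268035.6 in every library, out of 17 listed transcripts.

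*IGF2R* (chromosome 6, 160390114 to 160534539, plus strand) encodes the clearance receptor and had the highest counts of the 10 genes, from 8529 to 11108. It was at 383 and 363 CPM in vector control and at 399 and 384 CPM in OE. Both OE libraries were higher, but OE replicate 2 was barely above vector control replicate 1. OE over vector control was 0.07 on the log2 scale (SE 0.0602, edgeR adjusted p = 0.573), with a 95% interval from 0.932-fold to 1.18-fold. Exons of the pseudogene *CHP1P2*, which had 264 to 358 counts per library, overlap those of *IGF2R* on the same strand.

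*IRS1* (chromosome 2, 227596028 to 227664536, minus strand) encodes the docking protein of the activated receptor. It was at 91.9 and 87.2 CPM in vector control and at 86.4 and 87.8 CPM in OE. The groups overlapped, and the OE replicates differed by 1.02-fold. edgeR gave a log2 fold change of -0.04 (SE 0.0805, Benjamini-Hochberg adjusted p = 0.815), with a 95% interval from 0.829-fold to 1.14-fold.

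*IGFBP3* (chromosome 7, 45951844 to 45961473, minus strand) encodes the main carrier of IGF in serum. Its counts were 586 and 601 for vector control against 791 and 1022 for OE. Its level averaged 25.4 ± 0.291 CPM in vector control and 33.4 ± 2.69 CPM in OE (SD over 2 libraries each). Both OE libraries were higher, and the gap between the groups was larger than the difference between the OE libraries. The fitted log2 difference was 0.40 (SE 0.110, edgeR adjusted p = 0.181, unadjusted p = 0.0247), with a 95% interval from 1.06-fold to 1.64-fold. DESeq2 gave an adjusted p of 0.0110 for it, just outside the threshold, and its fold change was also below the study's limit of 0.5. When single libraries were omitted, its log2 fold change ranged from 0.31 to 0.48. In every library at least 99.2% of its counts were on ENST00000381086.5.

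*IGFBP2* and *IGFBP5* lie next to each other on chromosome 2, *IGFBP2* on the plus strand from 217497551 to 217529159 and *IGFBP5* on the minus strand from 217536828 to 217560272, with 7668 bases between their ends. *IGFBP2*, the most abundant of the binding protein genes by mean level per kb, had 109 and 107 CPM in vector control and 94.2 and 79.3 CPM in OE. Both OE libraries were lower, with a wider gap between them than between the vector control libraries. The log2 fold change of *IGFBP2* was -0.32 (SE 0.117, edgeR adjusted p = 0.257, unadjusted p = 0.0586), with a 95% interval from 0.637-fold to 1.01-fold. When single libraries were omitted, it ranged from -0.44 to -0.20. OE replicate 2 also had fewer counts on the short transcript ENST00000434997.1 (4.44% of the gene's counts) than the other libraries (10.1% to 12%).

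*IGFBP5*, which encodes a binding protein that also attaches to extracellular matrix, had 35.9 and 33.0 CPM in vector control and 39.4 and 38.2 CPM in OE. Both OE libraries were higher by a small margin. By edgeR the log2 difference came to 0.17 (SE 0.0981, adjusted p = 0.405), with a 95% interval from 0.928-fold to 1.37-fold. The neighbouring genes therefore had fitted changes of opposite sign, neither of which passed the test. The ratio of *IGFBP5* to *IGFBP2* CPM was 0.328 and 0.310 in the vector control and 0.418 and 0.482 in the OE libraries. For *IGFBP3* to *IGFBP2* it was 0.230 and 0.240 against 0.335 and 0.445. Both OE libraries were above the vector control for *IGFBP3* and *IGFBP5* and below it for *IGFBP2*. Neither ratio could therefore overlap between the groups, and this adds nothing to the values of the single genes. No test was made of the ratios because they were formed after the values were seen.

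*IGFBP4* (chromosome 17, 38599702 to 38613977, plus strand) encodes a binding protein that the protease PAPPA cleaves. Its counts were 1983 and 5267 for vector control against 3765 and 3070 for OE. In CPM the values were 85.2 and 224 in the vector control and 150 and 106 in the OE libraries, so that both OE libraries lay between the vector control libraries. The vector control libraries differed 2.63-fold, and of the 14023 genes averaging 4 CPM or more, 5.21% differed more. OE over vector control was -0.27 on the log2 scale (SE 0.537, edgeR adjusted p = 0.816). Omitting vector control replicate 1 gave -0.81, and omitting replicate 2 gave 0.58. The 2 libraries with the higher counts, vector control replicate 2 and OE replicate 1, had all of them on ENST00000269593.4. In the other two, 70.4% (vector control replicate 1) and 57.9% (OE replicate 2) were on ENST00000542955.1. The placement on transcripts thus moved with the level of *IGFBP4*, and its part in the spread was not tested.

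*IGFBP6* (chromosome 12, 53491220 to 53496129, plus strand) encodes a binding protein that prefers IGF2. It was at 7.60 and 28.4 CPM in vector control and at 6.97 and 8.95 CPM in OE. Vector control replicate 2 stood apart from the other 3 libraries, which lay close together. edgeR gave a log2 fold change of -1.18 (SE 0.704, Benjamini-Hochberg adjusted p = 0.425). Omitting vector control replicate 2 gave 0.062, and omitting replicate 1 gave -1.84. The lower mean of the OE libraries therefore rested on that library. In it, all 668 counts were on ENST00000548547.1, as they were in vector control replicate 1 and OE replicate 1.

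*IGFBP7* (chromosome 4, 57896939 to 57976551, minus strand) encodes the IGFBP-related protein of the group, a secreted matrix protein. Its counts were 35 and 187 for vector control against 223 and 309 for OE, which is 1.5 and 7.96 CPM against 8.89 and 10.7 CPM. Both OE libraries were higher, but vector control replicate 2 was far closer to them than to vector control replicate 1. By edgeR the log2 difference came to 1.05 (SE 0.834, adjusted p = 0.541). Omitting vector control replicate 1 gave 0.29, and omitting replicate 2 gave 2.69. The share of counts on the shorter ENST00000512512.1 was 57.1% in vector control replicate 1 and 13.9% to 16.2% in the other libraries. Exons of *POLR2B* (1116 to 1339 counts) and *IGFBP7-AS1* (32 to 61 counts) overlap those of *IGFBP7* on the opposite strand. The use of strand in counting was not given in the sources used here, so reads of *IGFBP7* and these genes may not have been told apart.

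**Figure D2:**
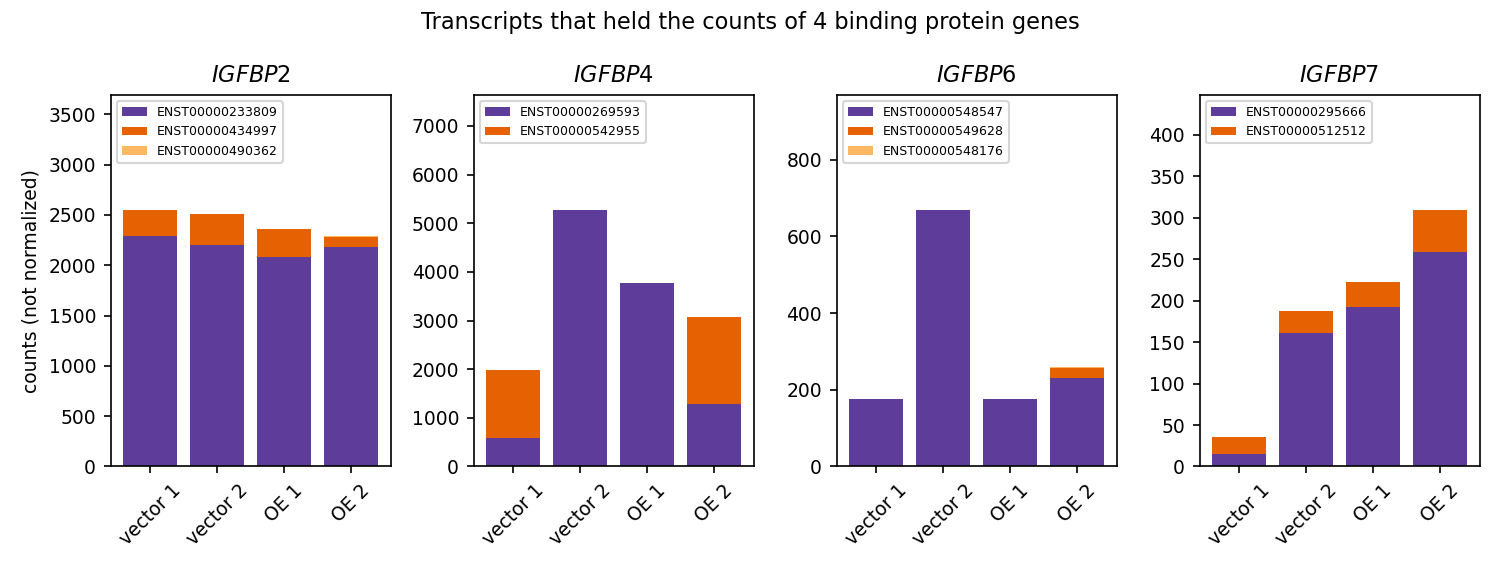
Counts (not normalized) of *IGFBP2*, *IGFBP4*, *IGFBP6* and *IGFBP7* in each library, stacked by the Ensembl transcript that held them. *IGFBP4* was on ENST00000269593 alone in vector control replicate 2 (5267 counts) and OE replicate 1 (3765 counts) and on 2 transcripts in the other libraries.

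**Figure D3:**
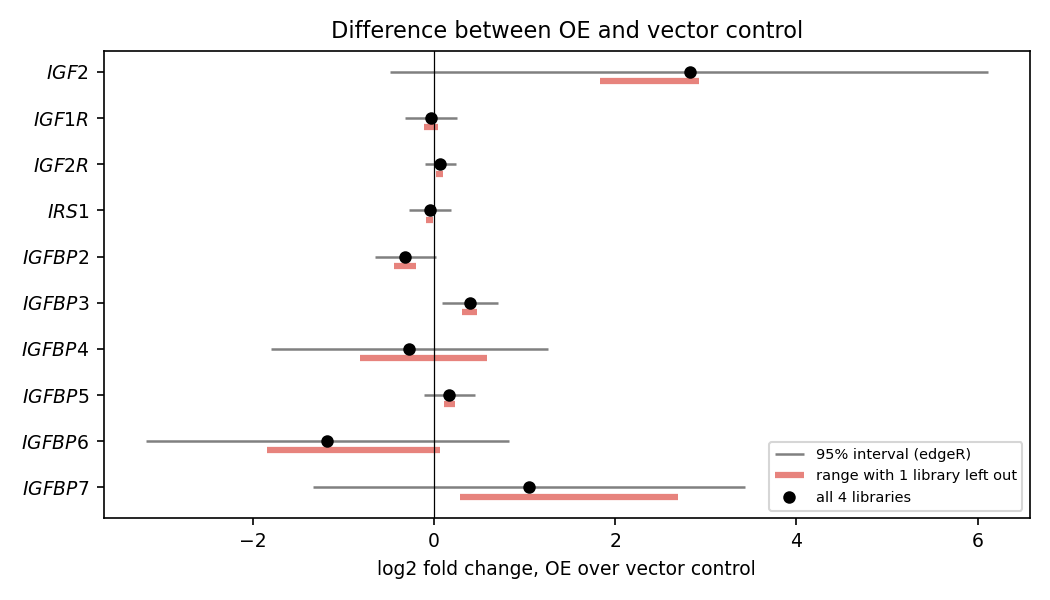
Log2 fold change (OE over vector control) of the 10 genes from edgeR, with all 4 libraries (black points), its 95% interval (grey lines) and the range with 1 library left out (red lines). For *IGF2*, the fit without vector control replicate 2 is left out, since the remaining control library is at 0 counts. Of the 10 intervals, that of *IGFBP3* alone excluded 0, and the left-out ranges of *IGF1R*, *IGFBP4* and *IGFBP6* crossed 0.

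The other genes of the pathway were taken from 5 lists with 62 genes, of which 54 were tested. Of these, 9 were higher and 8 lower in OE at edgeR's unadjusted p of less than 0.05, and 0 passed the study's thresholds, where DESeq2 called 4 as higher and 2 as lower. Over all tested genes the shares were 10.1% and 10.7% at that p in edgeR, and 4.35% and 4.42% in DESeq2. Among the other ligands, receptors and substrates, 4 of 6 tested genes were higher at that p and 0 lower, with a median log2 fold change of 0.56. *INSRR*, which encodes the insulin receptor-related receptor, was at 3.48 and 3.92 CPM in vector control and at 16.5 and 15.0 CPM in OE (log2 fold change 2.09, SE 0.153, edgeR adjusted p = 0.0480). *H19*, the imprinted noncoding RNA gene beside *IGF2*, was counted 17 and 23 times in vector control against 123 and 120 times in OE (log2 fold change 2.40, SE 0.261, edgeR adjusted p = 0.0685). In both genes the replicates lay close together and the groups were well apart.

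*IRS2*, the close relative of *IRS1*, was at 320 and 292 CPM in vector control and at 382 and 371 CPM in OE (log2 fold change 0.30, SE 0.0718, edgeR adjusted p = 0.151). *IGFBPL1*, an IGFBP-like gene, was at 3.44 and 3.92 CPM against 5.26 and 5.57 CPM. *INSR*, the insulin receptor gene, was at 29.5 and 27.8 CPM in vector control and at 21.2 and 24.5 CPM in OE (log2 fold change -0.33, SE 0.124, edgeR adjusted p = 0.264). *IRS4* and *IGFBP1* were listed at 0 counts in every library.

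The next list held genes set down as IGFBP proteases and their inhibitors, and cleavage of IGFBPs was not measured. Of its 11 tested genes, 3 were higher and 5 lower at an unadjusted p under 0.05. Over all tested genes the shares were 10.1% and 10.7%. The median log2 fold change of the list was -0.12. *STC2*, whose product inhibits PAPPA, was at 19.4 and 18.3 CPM in vector control and at 77.3 and 87.0 CPM in OE (log2 fold change 2.12, SE 0.113, edgeR adjusted p = 0.0321). *STC1*, its relative, was at 6.70 and 7.11 CPM against 3.15 and 2.66 CPM (log2 fold change -1.25, adjusted p = 0.0857). The fitted changes of these related genes had opposite signs. *ADAM12* and *PAPPA2*, named here outside the rule, were also higher at that p.

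The serine protease gene *PRSS23* was at 446 and 436 CPM in vector control and at 192 and 184 CPM in OE (log2 fold change -1.23, SE 0.0581, edgeR adjusted p = 0.0298). *HTRA1*, a secreted protease that cleaves IGFBPs, was at 290 and 284 CPM against 204 and 206 CPM (log2 fold change -0.49, adjusted p = 0.0707). *ADAM9*, a membrane metalloprotease, was at 139 and 130 CPM against 100 and 107 CPM (log2 fold change -0.38, adjusted p = 0.142). *PAPPA* itself was at 301 and 275 CPM in vector control and at 299 and 312 CPM in OE, with overlapping groups.

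Of the 18 tested adaptors and negative regulators, 0 were higher and 3 lower at an unadjusted p under 0.05. Over all tested genes, 10.1% were higher and 10.7% lower. The median log2 fold change of these 18 genes was -0.13. *SOCS3*, a feedback inhibitor of cytokine and insulin signalling, was at 103 and 102 CPM in vector control and at 77.8 and 81.6 CPM in OE. *PIK3R3*, a regulatory subunit of PI3K, was at 36.1 and 32.8 CPM against 20.4 and 25.7 CPM, and the adaptor gene *GRB14* was at no more than 33 counts per library. In the AKT, mTOR and FOXO arm, 2 of 17 tested genes were higher and 0 lower at that p, beside the same 10.1% and 10.7%. The median log2 fold change of this arm was 0. *EIF4EBP1*, the translation repressor that mTOR phosphorylates, was at 81.8 and 88.4 CPM in vector control and at 146 and 164 CPM in OE (log2 fold change 0.86, SE 0.102, edgeR adjusted p = 0.0715). *FOXO3*, a transcription factor that AKT restrains, was at 147 and 146 CPM against 189 and 197 CPM (log2 fold change 0.40, adjusted p = 0.0983). The tested IGF2 mRNA-binding protein genes, *IGF2BP2* and *IGF2BP3*, had overlapping groups, and *IGF2BP1* had at most 30 counts.

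SK-N-SH cultures hold cells of a neuronal (adrenergic) and a substrate-adherent (mesenchymal) state, so markers of both were measured beside the IGF axis. Of 12 adrenergic markers, 11 were tested, and in all 11 the groups did not overlap, with OE higher, against 27.8% of all genes. At an unadjusted p under 0.05, 9 were higher and 0 lower, against 10.1% and 10.7% of all tested genes. Their summed level was 656 and 719 CPM in vector control and 1173 and 1123 CPM in OE. *HAND2*, a transcription factor of this state, was at 222 and 239 CPM against 333 and 302 CPM (edgeR adjusted p = 0.11). *TH*, which encodes the first enzyme of catecholamine synthesis, was listed at 0 in every library.

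Of the 12 mesenchymal markers, 0 were higher and 5 lower at an unadjusted p under 0.05, against 10.1% and 10.7% of all tested genes. In 2 of them OE lay above the vector control and in 8 below it, and the groups overlapped for 2, against 27.8% above and 27.6% below over all tested genes. Their summed level was 3908 and 3876 CPM in vector control and 4104 and 2614 CPM in OE. *CD44* was at 613 and 565 CPM against 354 and 365 CPM (log2 fold change -0.71, SE 0.0650, edgeR adjusted p = 0.0615). *VIM* was at 348 and 350 CPM against 1254 and 376 CPM, where OE replicate 1 stood apart. Without *VIM*, a gene left out after its values were seen, the mesenchymal sum was 3559 and 3527 CPM against 2850 and 2238 CPM, lower in both OE libraries. *COL1A1*, kept in that sum and also named after its values were seen, was at 897 and 1039 CPM against 883 and 326 CPM, where OE replicate 2 stood apart. The adrenergic sum was higher in both OE libraries. The part of these markers in the values of the IGF axis was not tested. In bulk RNA, a change in the share of cells in a state and a change of RNA per cell cannot be told apart.

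**Figure D4:**
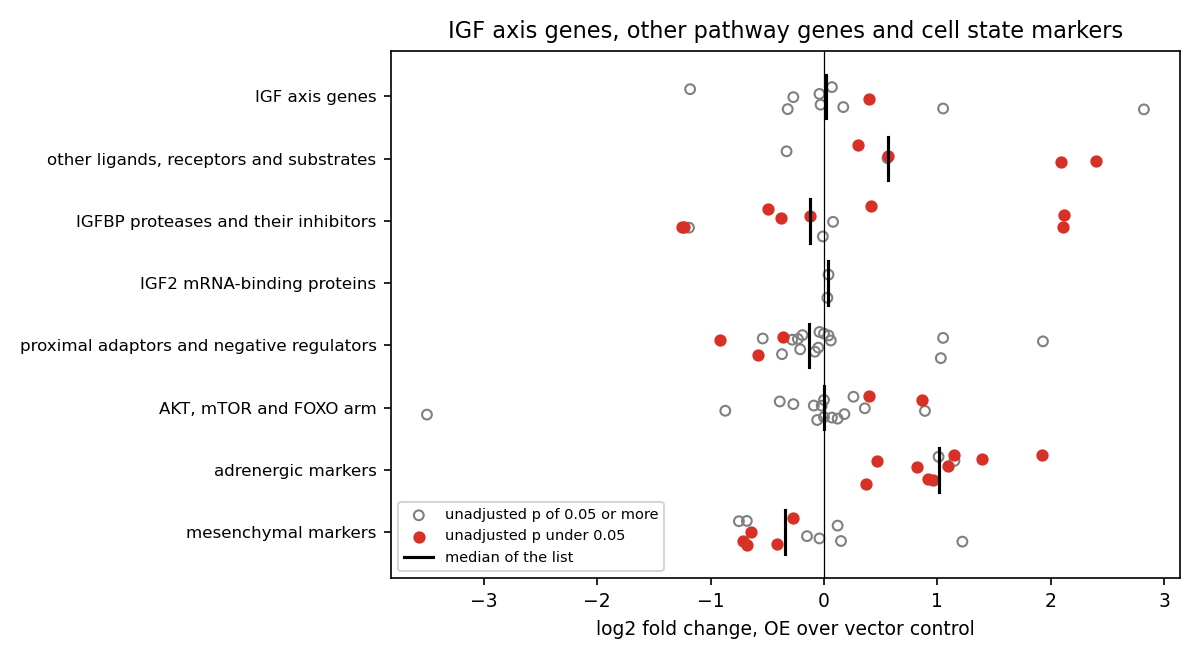
Log2 fold change (OE over vector control, edgeR) of every tested gene of the IGF axis, the 5 pathway lists and the 2 marker lists. Filled points have an unadjusted p under 0.05, open points do not, and the black bar is the median of a list. The median was 0.02 for the IGF axis genes, 1.01 for the adrenergic markers and -0.34 for the mesenchymal markers.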

How the data were processed

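RNA-seq counts of 4 SK-N-SH libraries, 2 of vector control and 2 of *RP5-998N21.4* OE cells, were analysed, grouped by the treatment label. Per the study's methods, FastQC, Trimmomatic and Bowtie2 were used by the authors for read quality, trimming and mapping to hg19. They tested differential expression with DESeq2. The submitters' processing notes also name Picard 2.21.6 and StringTie 2.1.6, without their role. The values deposited are whole read counts for single transcripts and are not normalized, and the use of strand is not given in the sources used here. Reads that several transcripts share are divided in a way that is also not given.

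Counts were summed per gene, filtered with filterByExpr, normalized by TMM and tested with edgeR 4.0.16 in R 4.3.3 (quasi-likelihood test, Benjamini-Hochberg adjustment over 20528 genes, no covariates). Standard errors were derived from the F statistic. DESeq2 1.42.0 and limma-voom (limma 3.58.1) were alternatives. On simulated counts, edgeR recovered most changed genes at a low spread but called none of them at the spread estimated per gene from these libraries, where DESeq2 called some of them along with unchanged genes. Positions, exon overlaps and transcript lengths were read from GENCODE as lifted to GRCh37. A length was found for 93.9% of the 61156 transcripts with a count, and the gene's canonical transcript was used for the 2 of the IGF axis without a length. The replicate numbers were not treated as pairs in the main test.

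The genes and lists were chosen with earlier results of these data known. Named genes were all 10 of the IGF axis, up to 5 genes per pathway list with an unadjusted p under 0.05 and a mean of at least 1 CPM in order of p, *INSR*, *IRS2* and *IGF1*, markers of both cell states, and genes whose exons overlap. Some genes that this rule or the lists include are not reported here. Others, such as *PAPPA*, were named after their values were seen.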

Additional observations from a re-analysis of the deposited data

How the results depend on the processing

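None of the 10 IGF axis genes passed the study's thresholds under any of the alternatives run. The overexpressed gene itself, *RP5-998N21.4*, did not pass them in edgeR (adjusted p = 0.0109). Where a fit called 0 of all genes, the lack of a call among these 10 does not show a lack of change. Over all genes, 0 were called by edgeR, 1800 with DESeq2, 9 with a minimum of 1 count in total, 122 with an adjusted p under 0.05, and 1 when the transcript with the highest mean count stood for its gene. The number of IGF axis genes at an unadjusted p under 0.05, 1 in edgeR, was 3 with DESeq2, 3 with limma-voom and 2 with the highest transcript. With the replicate number as a block (replicate block) it was 0. Shares over all genes at that p were taken for the main edgeR fit only (10.1% higher and 10.7% lower). The numbers of the alternatives therefore cannot be read as more or fewer than over all genes. The deviations of same-numbered libraries from their group means correlated at -0.0222 over 14023 genes. That value does not show whether same-numbered libraries share a culture or a transduction. Signs turned for *IGF1R* (0.0085 with upper-quartile normalization, -0.109 to 0.043 with single libraries left out, above 0 without vector control replicate 2 and without OE replicate 1) and, without vector control replicate 2, for *IGFBP4* (0.58, lowest -0.81 without replicate 1) and *IGFBP6* (0.062, lowest -1.84 without replicate 1), and the cause was not tested. The other 7 genes kept their direction under all 15 alternatives, though *IRS1* was at only -0.0017 with upper-quartile normalization. The adjusted p under 0.05 and the addition of *INS-IGF2* repeated the main values, so they could not turn a direction. With all 4 libraries, the adjusted p of *IGFBP3* ran from 0.0110 (DESeq2) to 0.345 (edgeR with the replicate block). The number of genes whose groups did not overlap was 6 in edgeR as reported and 5 or 6 over the alternatives with all 4 libraries. With 1 library left out, groups overlap less easily, so those numbers cannot be set beside it. Adding *INS-IGF2* to *IGF2* changed nothing, as it is listed at 0. With 2 libraries per group, a group left with 1 library was taken to vary like the other, and the limit of 3 counts covers counting error only.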

Other observations

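Several partners of the pathway differed widely between libraries of the same group, and they are given here as values. *SHC1*, the adaptor gene that links the receptor to MAPK signalling, was at 38.5 and 925 CPM in vector control and at 600 and 64.6 CPM in OE, high in the same pair of libraries as *IGFBP4*. *PDPK1*, the kinase gene upstream of AKT, was at 14.6 and 155 CPM in vector control and at 5.58 and 9.40 CPM in OE. *SOCS2*, an inhibitor of growth hormone signalling, was at 1.33 and 15.3 CPM against 23.4 and 39.9 CPM, lowest in vector control replicate 1 as *IGFBP7* was. *AKT1* was at 142 and 156 CPM against 34.3 and 130 CPM. These genes were chosen after their values were seen, and edgeR's unadjusted p was above 0.05 for all of them.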
